A study of Homo sapiens with 2 samples.

Results

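Aminoacyl-tRNA synthetases were examined as 34 listed genes taken by name, 19 of the cytosol and 15 of the mitochondrion. Of these, 31 had at least 1 probe set that the platform annotation assigns to that gene alone, namely 17 cytosolic and 14 mitochondrial genes with 66 probe sets between them, out of 19775 genes and 54613 probe sets in all. The probe sets of MARS1, QARS1 and TARS2 carry a second gene name, so these 3 genes have no value here. Both samples are labelled HL60, a line from a human promyelocytic leukaemia. They were 1 culture given eltrombopag, a thrombopoietin receptor agonist that also binds iron, at 3 µg/ml for 36 h, and 1 culture labelled untreated, both grown in RPMI with 10% serum. The sources used here name no vehicle and no culture time for the untreated sample, so drug, vehicle and time in culture cannot be told apart. With 1 array per group there is no replicate check and no test of the treatment, and the number of arrays limits the precision.

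Aminoacyl-tRNA synthetases join each amino acid to its tRNA, which makes the charged tRNAs that ribosomes use. Cytosol and mitochondria mostly use separate nuclear genes for this, and by convention the symbol of the cytosolic enzyme mostly ends in 1 and the mitochondrial enzyme in 2. Uncharged tRNA activates the kinase GCN2, and the transcription factor ATF4, made in greater amount once eIF2α is phosphorylated, is known to induce many of the cytosolic synthetase genes together with genes of amino acid synthesis and transport.

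MAS5 signals, which give the brightness of each probe set on a linear scale, were used, and each ratio is the log2 of eltrombopag over untreated. A floor of 56.9 was applied to low signals, and a gene is called measured where its probe set with the highest mean log2 signal exceeded the floor in one or both samples. All 31 synthetases with a value lay above the floor in both samples, so no synthetase ratio is a bound. The scale is not centred, since the median log2 ratio over the 10314 measured genes was -0.12, with quartiles of -0.37 and 0.11. Error can be gauged within these arrays only from how far probe sets for the same gene differ, an SD of 0.26 on the log2 scale over 4374 genes, which leaves out any difference between cultures. Signals of different probe sets are not on a common scale, so only ratios are set side by side between genes.

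The label of the cells was set against markers. Of 8 promyelocyte and myeloid genes with a value, 6 lay above the floor in each sample, MPO among them, while ELANE, neutrophil elastase, and KIT lay below it in both. All 9 plasma cell markers also lay above the floor in both samples, so the markers go against the labelled cell type in part, and the samples are referred to by their labels. The summed signal of the 9 plasma cell markers was 10389 with eltrombopag and 16525 untreated, of which JCHAIN, the joining chain of antibodies, gave 4866 with eltrombopag and 7972 untreated. All 9 had a log2 ratio below 0, and 4 of the 9 were at least 2-fold lower, against 2.27% of measured genes. These 4, named after their values were seen, were IRF4, 5.16-fold lower, TNFRSF17, 4.28-fold lower, SLAMF7, 4.02-fold lower, and SDC1, 2.41-fold lower. Other probe sets of these 9 genes above the floor in both samples gave log2 ratios of -0.385 for SLAMF7 and -1.24 for SDC1. They gave -1.34 for PRDM1 and 0.09 for MZB1. The summed signal of the 8 promyelocyte genes was 8476 with eltrombopag and 7386 untreated. MYB alone, with 5855 in the eltrombopag and 4349 in the untreated sample, differed by more than these 2 sums do. The sums for both marker lists add probe sets that are not on a common scale, so the brightest weigh most. Of the 6 measured promyelocyte genes, 2 had a log2 ratio above 0, the median was -0.15, and CTSG was 1.79-fold lower. Of markers of other cell types, PAX5 of B cells, HBB of erythroid cells and SPARC of fibroblasts were above the floor in the untreated sample alone and CD3E of T cells in the eltrombopag sample alone. In bulk samples, fewer cells of a type and less RNA per cell cannot be told apart, and the part of these marker differences in the synthetase values was not tested.

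Most cytosolic synthetases gave somewhat more signal in the eltrombopag sample, and the mitochondrial enzymes split evenly around 0 on this uncentred scale. Of 17 cytosolic genes, 13 had a log2 ratio above 0, which is 76.5% against 36.6% of all measured genes, and their median was 0.27. Of 14 mitochondrial genes, 7 had a ratio above 0 and 7 below, and their median was -0.04. The cytosolic median exceeded the mitochondrial one by 0.31. The 13 cytosolic genes above 0 also lay above the upper quartile of all measured genes, a mark passed by 25.0% of those genes, as did 2 mitochondrial genes. The differences were small. No synthetase was 2-fold higher or lower, against 0.65% and 2.27% of measured genes. At least 1.5-fold higher were 1 cytosolic gene, SARS1, and 1 mitochondrial gene, SARS2, against 3.49% of measured genes, and at least 1.5-fold lower were none, against 11.8%.

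**Figure D1:**
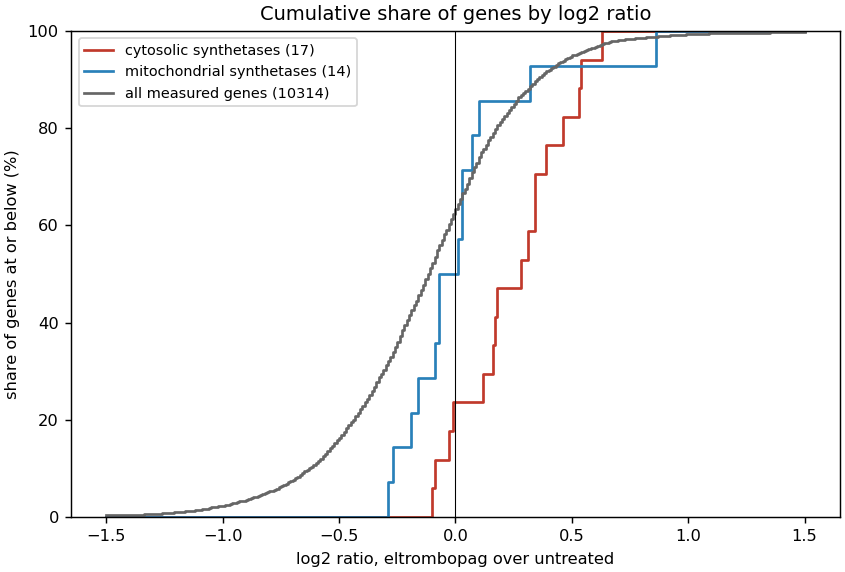
Share of genes (%, vertical axis) at or below each log2 ratio of eltrombopag over untreated (horizontal axis) for the 17 cytosolic synthetases, the 14 mitochondrial synthetases and the 10314 measured genes. The cytosolic curve runs to the right of the others over most of its height, crossing them only near the top, with a median of 0.27 against -0.12 for all measured genes, and the mitochondrial median is -0.04.

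The cytosolic enzymes with the highest ratios charge serine, isoleucine, tyrosine and cysteine. SARS1, seryl-tRNA synthetase, had a signal of 952 with eltrombopag and 617 untreated, a log2 ratio of 0.63, and its second probe set gave 0.57 from 436 with eltrombopag and 294 untreated. IARS1, the isoleucine enzyme, had 5736 with eltrombopag and 3945 untreated, a ratio of 0.54 that rests on 1 probe set. For YARS1, the tyrosine enzyme, the signals were 3211 with eltrombopag and 2226 untreated and the ratio 0.53, with 0.67 in its other probe set. For these 3 genes every probe set above the floor was brighter with eltrombopag. CARS1, the cysteine enzyme, had 4448 with eltrombopag and 3234 untreated, a ratio of 0.46. A second CARS1 probe set gave 0.52, whereas a dim one, with 70.8 in the eltrombopag and 99.3 in the untreated sample, gave -0.49, so the gene's probe sets do not all point one way.

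A middle group had ratios between 0.27 and 0.39. FARSA and FARSB encode the alpha and beta subunits of cytosolic phenylalanyl-tRNA synthetase. FARSA had 1071 with eltrombopag and 819 untreated, a log2 ratio of 0.39, but its dimmer probe set gave -0.50. FARSB had 2196 with eltrombopag and 1739 untreated, a ratio of 0.34, and its remaining probe sets gave -0.01 and -0.03, so neither subunit has a settled direction. AARS1, the alanine enzyme, had 2069 with eltrombopag and 1635 untreated, a ratio of 0.34 in its single probe set. For LARS1, the leucine enzyme, the signals were 5682 with eltrombopag and 4613 untreated and the ratio was 0.30. All 4 LARS1 probe sets were above 0, between 0.14 and 0.46. WARS1, the tryptophan enzyme, which interferon gamma is known to induce, had 3774 with eltrombopag and 3124 untreated, a ratio of 0.27, with 0.39 in the other probe set.

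The remaining cytosolic enzymes had ratios under the probe set SD of 0.26 in size. RARS1, for arginine, had 850.1 with eltrombopag and 752 untreated, a log2 ratio of 0.18. GARS1 and KARS1, for glycine and lysine, are unusual in that each gene makes both the cytosolic and the mitochondrial enzyme. GARS1 had 4756 with eltrombopag and 4240.4 untreated, a ratio of 0.17, and KARS1 had 7573 with eltrombopag and 6784 untreated, a ratio of 0.16, with 0.05 in its other probe set. VARS1, for valine, had 336 with eltrombopag and 310.5 untreated, a ratio of 0.11, and its second probe set was under the floor in each. The other 4 genes lay below 0 on the deposited scale but above the median of all measured genes. TARS1, for threonine, had 1908 with eltrombopag and 1925 untreated, a ratio of -0.01. A dimmer TARS1 probe set had 232 with eltrombopag and 101 untreated, a ratio of 1.20, and was the only one to pass 2-fold among 32 cytosolic probe sets with both signals over the floor. HARS1, for histidine, had 889 with eltrombopag and 914 untreated, a ratio of -0.04. EPRS1, a single protein that charges both glutamate and proline tRNAs, had 2227 with eltrombopag and 2373 untreated, a ratio of -0.09, with -0.13 and -0.51 in its other probe sets. NARS1, for asparagine, had 5356 with eltrombopag and 5768 untreated, a ratio of -0.11.

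**Figure D2:**
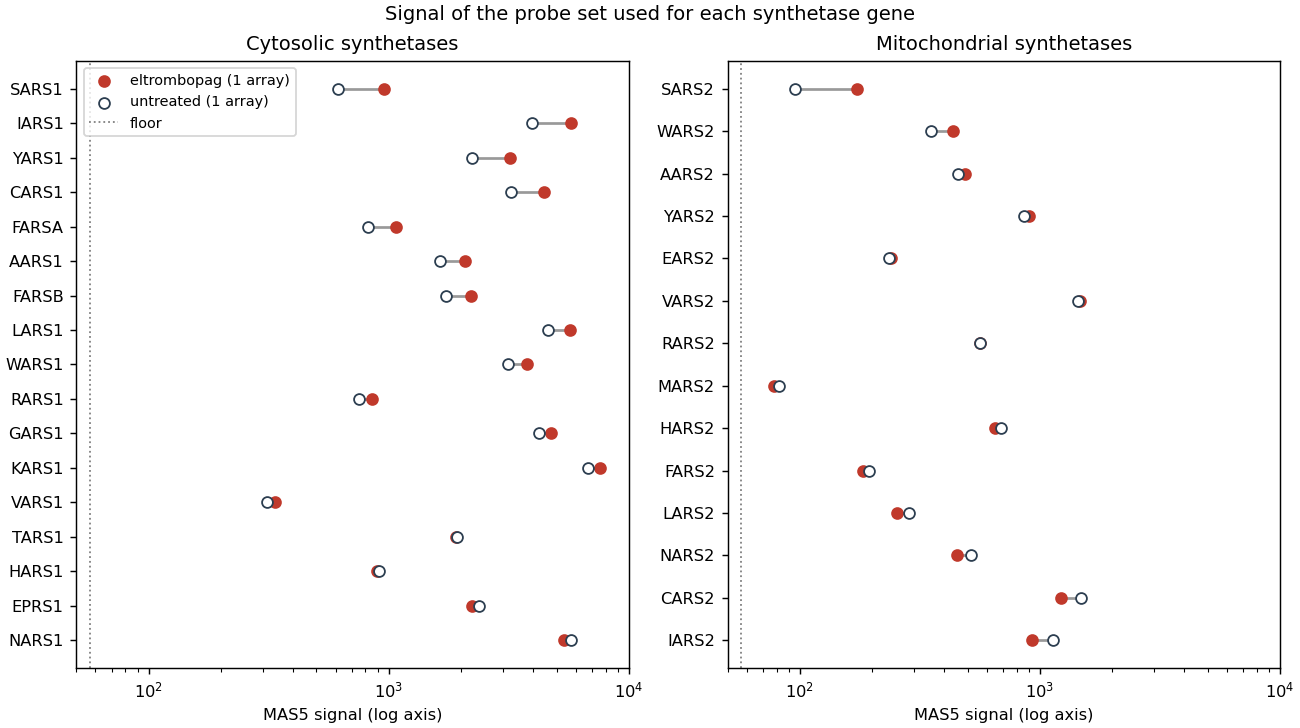
MAS5 signal (horizontal log axis) of the probe set used for each synthetase gene, with eltrombopag as filled points and untreated as open points, 1 array each, and the floor of 56.9 as a dotted line. The 13 cytosolic genes at the top of the left panel were brighter with eltrombopag, from SARS1 (952 with eltrombopag, 617 untreated) down to VARS1 (336 with eltrombopag, 310.5 untreated), while the mitochondrial genes split 7 and 7.

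Log2 ratios of the mitochondrial enzymes lay between -0.29 and 0.86, and the 2 highest were those of SARS2 and WARS2. SARS2, the mitochondrial serine enzyme, had 173 with eltrombopag and 95.4 untreated, a log2 ratio of 0.86 in 1 dim probe set, and this ratio was 0.02 with the floor at the 75th percentile. WARS2, for tryptophan, had 436 with eltrombopag and 351 untreated, a ratio of 0.31, and its other measured probe set gave 0.53. Both were above the upper quartile of all measured genes. AARS2, for alanine, had 487 with eltrombopag and 456 untreated, a ratio of 0.09, and YARS2, for tyrosine, had 901 with eltrombopag and 859 untreated, a ratio of 0.07. For VARS2, the valine enzyme, the signals were 1466 with eltrombopag and 1439 untreated, a ratio of 0.03. EARS2, for glutamate, had 239.95 with eltrombopag and 236 untreated, also 0.03, with probe sets ranging between -0.58 and 0.07. RARS2, for arginine, had 564 with eltrombopag and 562 untreated, a ratio of 0.004.

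Of the 7 mitochondrial genes below 0, MARS2, the methionine enzyme, had 78.1 with eltrombopag and 82.2 untreated, close to the floor, a log2 ratio of -0.08. HARS2, for histidine, had 651 with eltrombopag and 686 untreated, also -0.08. FARS2, for phenylalanine, a single-chain enzyme unlike its cytosolic counterpart, had 183 with eltrombopag and 195 untreated, a ratio of -0.09. These 3 lay above the median of all measured genes. LARS2, for leucine, had 255 with eltrombopag and 286 untreated, a ratio of -0.17, and NARS2, for asparagine, had 449.8 with eltrombopag and 515 untreated, a ratio of -0.20. The lowest ratios were those of CARS2 and IARS2, for cysteine and isoleucine. CARS2 had 1225 with eltrombopag and 1485 untreated, a ratio of -0.28, but 0.32 in a dim probe set. IARS2 had 925 with eltrombopag and 1133 untreated, a ratio of -0.29. Relative to the median of all measured genes of -0.12, these last 2 genes were lower by less than the probe set SD.

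**Figure D3:**
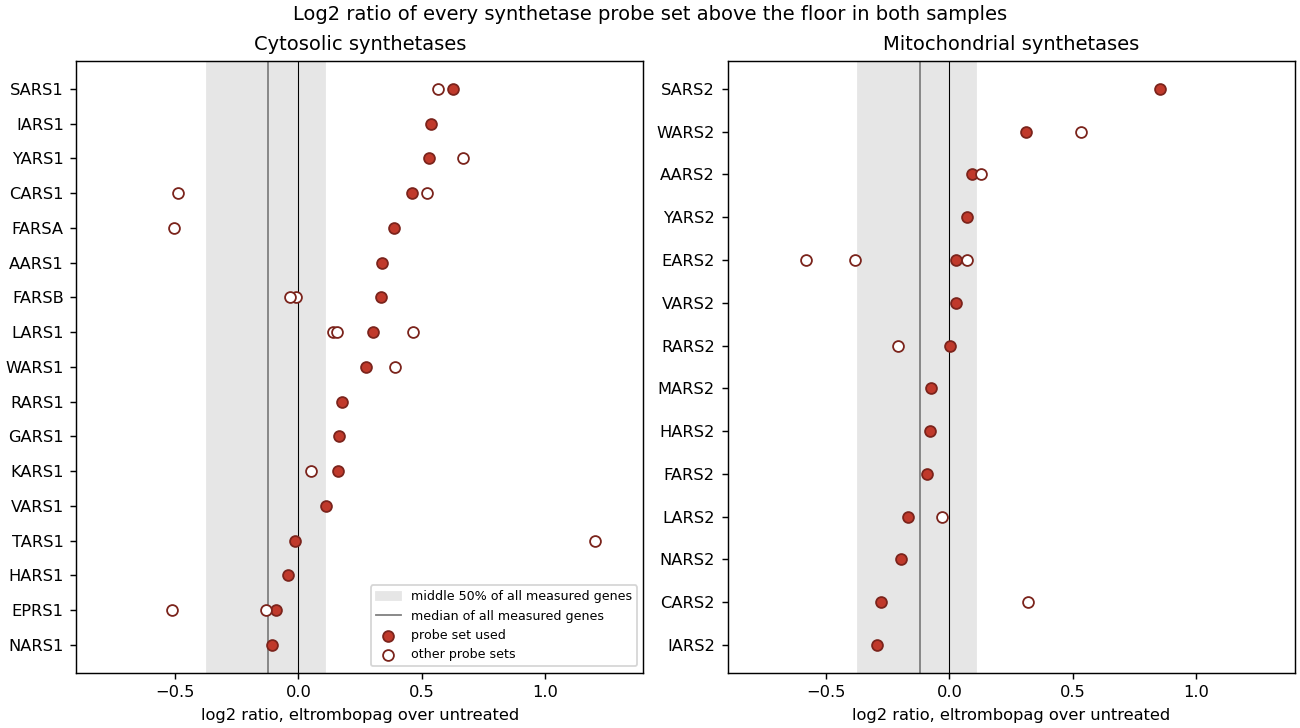
Log2 ratio of eltrombopag over untreated (horizontal axis) for each synthetase probe set with both signals over the floor, filled for the probe set used and open for the others, with the middle 50% and the median of all measured genes shaded and lined. In each of CARS1, FARSA, FARSB, TARS1, CARS2, EARS2 and RARS2 an open point lies on the other side of 0 from the filled one. The open TARS1 point is at 1.20.

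Probe sets of 1 gene pointed the same way for some synthetases and not for others. Of 10 cytosolic genes with at least 2 probe sets whose signals both exceeded the floor, 5 had all of them above 0 (KARS1, LARS1, SARS1, WARS1 and YARS1), EPRS1 had none above 0, and 4 were mixed. Of 6 such mitochondrial genes, 2 had all above 0, 1 had none and 3 were mixed. Counted by probe set, 22 of 32 cytosolic ones were above 0 with a median of 0.17, 11 of 22 mitochondrial ones with a median of -0.01, and 6355 of the 16895 probe sets that name 1 gene with a median of -0.12. With the mean over measured probe sets in place of the brightest, the cytosolic median was 0.17, FARSA had -0.06 and TARS1 had 0.595.

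The contrast between compartments was then read amino acid by amino acid, which sets each cytosolic gene against the mitochondrial gene for the same tRNA family. In 10 of 13 pairs, with FARSA standing for the phenylalanine enzyme, the cytosolic gene had the higher log2 ratio, and the median difference was 0.17. The probe set SD of 0.26 is for a single ratio, and a difference between 2 genes carries the error of both. The difference was above this SD in 5 pairs. It was 0.83 for isoleucine (IARS1 0.54, IARS2 -0.29), 0.74 for cysteine (CARS1 0.46, CARS2 -0.28), 0.48 for phenylalanine (FARSA 0.39, FARS2 -0.09), 0.47 for leucine (LARS1 0.30, LARS2 -0.17) and 0.46 for tyrosine (YARS1 0.53, YARS2 0.07). The mitochondrial gene had the higher ratio for serine, glutamate and tryptophan, by less than that SD in each, with differences of -0.23, -0.12 and -0.04. With the mean over probe sets the cytosolic gene was again higher in 10 of 13 pairs, but by more than the SD in 3, isoleucine, tyrosine and leucine, while the difference was 0.14 for cysteine and 0.03 for phenylalanine. Without probe sets ending in _x_at or _s_at, 8 pairs had a value, and the cytosolic gene was higher in 6 of them, in 2 by more than the SD. Serine and tryptophan were the amino acids for which both genes were above the upper quartile of all measured genes.

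**Figure D4:**
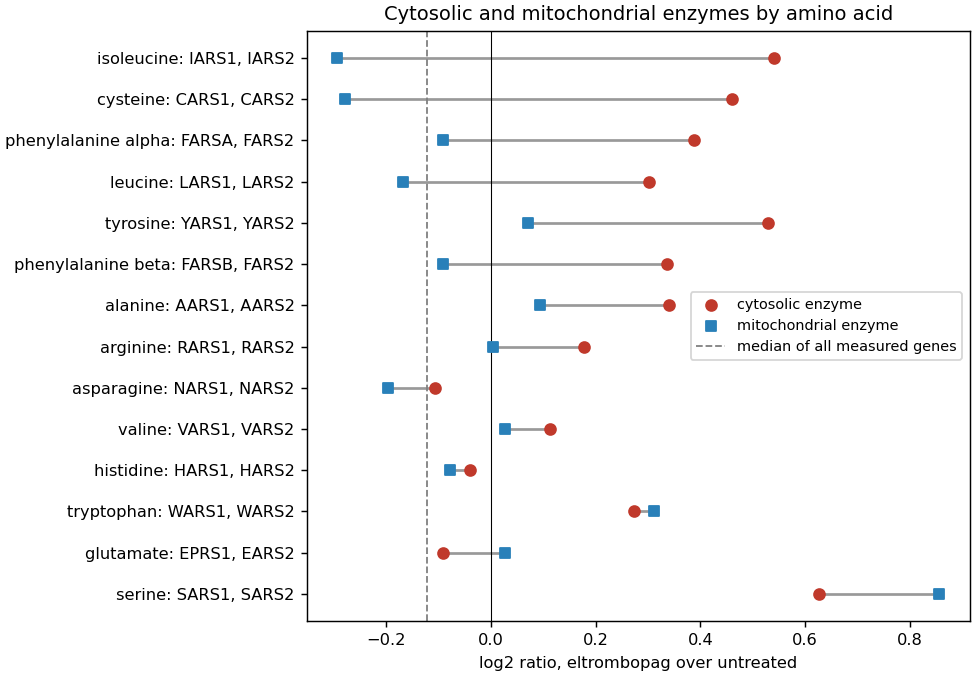
Log2 ratio of eltrombopag over untreated (horizontal axis) of the cytosolic enzyme (circle) and the mitochondrial enzyme (square) for each amino acid, with the median of all measured genes dashed. The pairs are ordered by cytosolic minus mitochondrial, from 0.83 for isoleucine at the top to -0.23 for serine at the bottom.

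HARS1 and HARS2 lie head to head and their promoter windows overlap, which is why that sequence is shown. In RefSeq on GRCh38.p14 the 184 bases at chr5:140691321-140691504, printed from the plus strand, belong to the windows of both genes. Capitals mark the 84 bases between the 2 transcription starts, HARS1 running to the left and HARS2 to the right. The log2 ratios of the pair were -0.04 for HARS1 and -0.08 for HARS2.
HARS1_HARS2: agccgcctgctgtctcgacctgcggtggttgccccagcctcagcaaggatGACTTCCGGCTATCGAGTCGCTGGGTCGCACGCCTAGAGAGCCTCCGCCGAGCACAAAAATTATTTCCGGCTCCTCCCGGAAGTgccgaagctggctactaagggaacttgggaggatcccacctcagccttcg

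Promoters of the members were searched because ATF4 binds, with C/EBP partners, a composite element whose core is often written TGATGNAA. RefSeq windows of 300 bases on GRCh38.p14, 250 before and 50 after each transcription start, were available for 29 of 34 members; AARS2, LARS1, VARS1, VARS2 and YARS1 had none. TGATGNAA on either strand was found in 7 of 16 cytosolic and 1 of 13 mitochondrial genes with a window, which is 43.8% and 7.69%, against 4.46% of all 27305 genes with a window. By window the shares were 33.3% of 21 cytosolic and 5.88% of 17 mitochondrial ones, against 3.62% of all 35116. The narrower TGATGCAA, whose matches are among those of TGATGNAA, was found in 6 cytosolic genes and no mitochondrial one, and in 28.6% of the cytosolic windows against 0.866% of all windows. Of the other 2 patterns searched, TGATGNNAT matched in GARS1 and TARS1, where it overlaps the TGATGNAA match, and in 3.36% of all windows, and ACTACAA, which overlaps none of these patterns in sequence, in no member and in 2.77% of all windows. A match is a description of letters and no evidence of binding.

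The 8 matches are shown in windows of 60 bases, each written 5′ to 3′ on the gene's own strand with the match in capitals, to show how alike they are and where they lie. On GRCh38.p14 the windows are chr9:92293677-92293736 on the minus strand for IARS1, chr11:3057392-3057451 on the minus strand for CARS1, chr16:70289660-70289719 on the minus strand for AARS1 and chr7:30594819-30594878 on the plus strand for GARS1. The others are chr5:33440941-33441000 on the plus strand for TARS1, chr18:57621789-57621848 on the minus strand for NARS1, chr12:57488038-57488097 on the plus strand for MARS1 and chr12:32756061-32756120 on the minus strand for YARS2. In IARS1 the match ran from 13 to 6 bases before the start and in GARS1, at the second of 2 annotated starts, from 33 to 26 before it. In CARS1 and MARS1 it spanned the start, in TARS1 and NARS1 it lay 3 to 10 and 15 to 22 bases into the transcript, counting the first transcribed base as 1, and in AARS1 it was farther off, 187 to 180 bases before the start.
IARS1: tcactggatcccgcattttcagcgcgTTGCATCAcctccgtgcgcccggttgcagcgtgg
CARS1: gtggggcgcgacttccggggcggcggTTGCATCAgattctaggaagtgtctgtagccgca
AARS1: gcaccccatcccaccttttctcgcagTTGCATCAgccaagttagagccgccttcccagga
GARS1: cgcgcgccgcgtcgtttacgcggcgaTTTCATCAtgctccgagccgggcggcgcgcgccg
TARS1: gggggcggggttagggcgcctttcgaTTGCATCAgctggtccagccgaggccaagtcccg
NARS1: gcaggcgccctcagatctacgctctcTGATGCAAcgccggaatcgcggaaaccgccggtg
MARS1: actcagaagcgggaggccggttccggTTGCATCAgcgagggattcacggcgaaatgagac
YARS2: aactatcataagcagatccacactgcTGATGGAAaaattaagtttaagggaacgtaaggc

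The letters TTGCATCA, the reverse complement of TGATGCAA, stand in IARS1, CARS1, AARS1, TARS1 and MARS1, and the forward form in NARS1. The 6 cytosolic genes with a match and a value had a median log2 ratio of 0.25, with 4 of 6 above 0, and the 8 with a window and no match had a median of 0.22, with 6 of 8 above 0. With the mean over probe sets the medians were 0.25, with 5 of 6 above 0, and 0.10, with 5 of 8 above 0. Of all measured genes, 36.6% were above 0 as deposited and 34.5% with the mean over probe sets. The difference between the small sets with and without a match was not tested. IARS1, CARS1 and AARS1 had 0.54, 0.46 and 0.34, whereas TARS1 and NARS1, with the same letters near the start, had -0.01 and -0.11, and TARS1 had 0.595 with the mean over probe sets. SARS1, with the highest cytosolic ratio of 0.63, had no match in either of its overlapping windows. The window of its first annotated start, chr1:109213643-109213942 on the plus strand, is shown for that reason, all in lower case since no pattern was found.
SARS1: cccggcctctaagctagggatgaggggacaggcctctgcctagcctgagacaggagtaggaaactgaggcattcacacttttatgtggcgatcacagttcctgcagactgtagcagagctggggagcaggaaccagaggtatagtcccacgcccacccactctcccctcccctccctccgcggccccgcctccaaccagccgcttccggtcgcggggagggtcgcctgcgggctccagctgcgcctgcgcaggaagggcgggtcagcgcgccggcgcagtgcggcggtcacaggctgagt

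Medians of groups within the family are given side by side, and the differences between them were not tested. The 12 measured cytosolic synthetases listed here as ATF4 targets had a median log2 ratio of 0.29 with 9 above 0. The 5 other cytosolic ones had a median of 0.18 with 4 above 0, and 36.6% of all measured genes were above 0. EPRS1, IARS1, LARS1, RARS1 and KARS1, enzymes of the multisynthetase complex, had a median of 0.18, and the 12 enzymes outside it 0.30. Cytosolic enzymes of class I, one of the 2 structural classes of synthetase, had a median of 0.29 over 8 genes and those of class II 0.17 over 9. The mitochondrial medians were 0.004 over 9 genes for class I and -0.08 over 5 for class II.

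Other cytosolic and nuclear genes that make or use charged tRNA were read from lists. AIMP1, a scaffold of the multisynthetase complex, had 1088 with eltrombopag and 1065 untreated, a log2 ratio of 0.03. Its other probe sets gave -0.23 and -0.2. Of 10 measured genes of tRNA export and end processing, 2 had a ratio above 0, which is 20.0% against 36.6% of all measured genes, and the median was -0.20 against -0.12. TSEN15, a subunit of the tRNA splicing endonuclease, had 622 with eltrombopag and 1056 untreated, 1.70-fold lower, and DTD1, which removes D-amino acids from tRNA, had 153 with eltrombopag and 257 untreated, 1.68-fold lower. XPOT, the tRNA exporter, named after its values were seen, had a ratio of 0.42 in its brightest probe set and -0.23 in the other, which had 988 with eltrombopag and 1160.1 untreated. Of 4 measured cytosolic translation factors, EIF5A, a factor that carries hypusine, was lower in all 3 probe sets, with 646 in the eltrombopag and 1096 in the untreated sample for the brightest, and log2 ratios between -1.57 and -0.76. EEF2, the translocation factor, had -0.20 in the probe set used and 0.02 in another of about the same brightness.

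The neighbouring steps in mitochondria were read in the same way. GFM1 and TSFM, both elongation factors, had log2 ratios of -0.26 and -0.23. The 3 measured genes of their list were all below 0, as were 6538 of all 10314 measured genes. Their median was -0.23 against -0.12. Of 4 genes for amidation of glutamate on tRNA and for formylation of methionine on tRNA, 2 were above 0, against 36.6% of all measured genes. GATC, an amidotransferase subunit, gave 0.76 in its brightest probe set, with 839 with eltrombopag and 496 untreated, but -0.55 in another, and MTFMT, the formyltransferase, had -0.27.

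Of 25 measured ATF4 targets outside the synthetase family, 11 had a log2 ratio above 0, which is 44.0% against 36.6% of all measured genes, and the median was -0.05 against -0.12. In size, 4 exceeded 1.5-fold upwards and 2 downwards, against 3.49% and 11.8% of measured genes. ASNS, asparagine synthetase, had 3614 with eltrombopag and 2258 untreated, a ratio of 0.68. CTH, of cysteine synthesis, and SLC7A11, the cystine importer, had 0.61 and 0.60. PPP1R15A, which directs the phosphatase that acts on eIF2α, had 206 with eltrombopag and 53.1 untreated, below the floor, and was at least 3.63-fold higher. Its other probe set, at 136 with eltrombopag and 73.2 untreated, gave a smaller difference of 1.86-fold, a log2 ratio of 0.90. SLC7A5, a transporter of large amino acids, had 702 with eltrombopag and 1259 untreated, a ratio of -0.84, and ALDH18A1, of proline synthesis, had -0.64.

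The position of the cytosolic list relative to the rest of the array did not hang on the scaling. After median centring, quantile normalization and lowess the cytosolic median was 0.38, 0.36 and 0.36, the mitochondrial median was 0.07, 0.09 and 0.08, above 0 in place of below it, and the median of all measured genes -0.02, -0.01 and -0.03. NARS1 and EPRS1 changed sign in some of these scalings, and HARS1 and TARS1 were above 0 in all 3. In the same order, 16, 17 and 15 of 17 cytosolic genes were above 0. Of 14 mitochondrial genes, 10 were above 0 in each, against 47.7%, 48.6% and 47.1% of all measured genes. Measured genes in the same range of mean signal as the cytosolic synthetases, 5451 in number, had a median of -0.10 and 38.5% above 0 on the deposited scale.

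**Figure D5:**
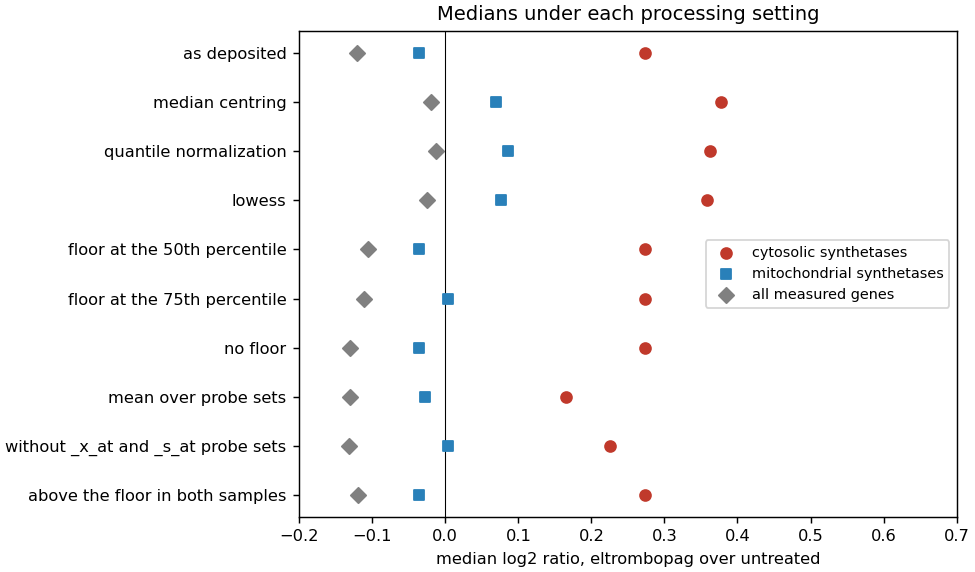
Median log2 ratio of eltrombopag over untreated (horizontal axis) under each processing setting for cytosolic synthetases (circles), mitochondrial synthetases (squares) and all measured genes (diamonds). The circles lie to the right of the squares in every setting drawn, closest with the mean over probe sets, at 0.17 and -0.03.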

How the data were processed

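Biotinylated cRNA from about 5 µg of Trizol-extracted total RNA was hybridised by the Affymetrix protocol, per the labels' protocols. The authors deposited 1 signal intensity per probe set and sample, made with MAS5 per the submitters' processing notes; the sources used here give neither its version nor its scaling target nor any detection call. Within each array this method corrects background and mismatch signal, so dim probe sets carry large relative error. No count depth applies, and precision is limited by the 2 arrays.

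Of 54613 probe sets, 41091 name 1 gene in the platform annotation, 1801 name several and were left unnamed, and 11721 had no gene name. Signals below the 60th percentile of both samples were raised to it, and the probe set with the highest mean log2 signal stood for a gene. All listed synthetases are named; of the companion lists of translation and ATF4 genes, those at least 1.5-fold changed and the 2 largest ratios per list. Markers are counted by list. The members and lists were chosen with earlier results of these data known. Alternatives covered scaling (lowess span 0.3), floor, probe set choice and the threshold of change. The steps were tested on simulated data, with known changes of 2-fold or more put into bright genes. That test does not cover dim probe sets or smaller differences such as those of the synthetases. Python 3.11.15, pandas 2.3.3 and statsmodels 0.14.6 were used.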

Additional observations from a re-analysis of the deposited data

How the results depend on the processing

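No paired analysis was possible because each group holds 1 sample, and for the same reason no replicate could be left out. The cytosolic median log2 ratio of 0.27 was 0.38 after median centring, 0.36 after quantile normalization, 0.36 after lowess and 0.17 with the mean over probe sets, and the mitochondrial median of -0.04 was 0.069, 0.086 and 0.076 under these scalings. Their difference of 0.31 ranged down to 0.19, with the mean over probe sets. Cytosolic genes at least 1.5-fold higher, 1 as deposited, numbered 3 under each of these scalings and also when probe sets were averaged. They numbered 2 when those ending in _x_at or _s_at were left out. In that setting 8 of 12 cytosolic genes were above 0, against 35.6% of all measured genes. The share of the whole array past 1.5-fold upwards was 3.49% as deposited. No such share is given for the alternatives, so the counts of 3 and 2 have no background. Median centring, quantile normalization and lowess also raised the array-wide share above 0 from 36.6% to 47.7%, 48.6% and 47.1%. Mitochondrial genes at least 1.5-fold higher numbered 0 with the floor at the 75th percentile. Synthetases past 2-fold, 0 as deposited, numbered 1 after quantile normalization and 1 after lowess, SARS2 in both, and 2 passed the threshold of 1.5-fold. Of 272 single-gene values under an alternative, 266 moved by less than the probe set SD and 6 by more: SARS2 (0.02, floor at the 75th percentile), CARS1, FARSA, TARS1 and CARS2 (0.16, -0.06, 0.595 and 0.02, mean over probe sets) and FARSB (-0.03, without those suffixes). Many of the 272 could not move, so this count says little about stability. All 31 synthetases with a value lay above the floor in both samples. A lower floor, no floor or a demand for both signals above the floor therefore left their ratios unchanged. Averaging could not change genes with 1 measured probe set, and median centring shifted every gene by the same amount, under that SD. The cytosolic gene was higher in 10 of 13 amino acid pairs, by more than the probe set SD in 5; this second count was 3 when probe sets were averaged. Without those suffixes the counts were 6 and 2 of 8 pairs. These counts and those of members above 0 were chosen after seeing the data. Dim probe sets such as those of SARS2 and MARS2 limit what these arrays can show.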
